A study of Mus musculus with 6 samples.

Results

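Accessible chromatin in the mouse intestinal epithelium is not spread evenly, and the regions described here are the places where peaks of an assay for transposase-accessible chromatin with sequencing (ATAC-seq) stand closest together. A peak was a member if it lay on chromosomes 1 to 19, was shorter than 1500 bp, and had at least 7 other peaks with centres inside a 25 kb window centred on it. Of 90823 consensus peaks, 1274 were members, which is 1.40% of all peaks. Neighbouring members no farther apart than one side of that window were joined, which gave 390 loci. The choice used peak positions and lengths only and no difference between treatments, although the positions themselves were called from ATAC-seq reads.

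The study holds 6 libraries of organoids, which are small epithelial structures grown from isolated mouse crypts in Matrigel. The groups were organoids given 25 µM arachidonic acid (AA), organoids given 50 nM prostaglandin E2 (PGE2), and organoids given vehicle, with 2 libraries each after 3 days. AA is a membrane-derived fatty acid, and PGE2 is one of the lipid mediators made from it; the series' design text names a dimethyl form of PGE2 where the sample labels say PGE2. All groups shared the culture in Matrigel, the sort of intestinal epithelial cells before the assay and the Omni-ATAC protocol, and the labels used here name no strain, age or separate cultures or animals. P-values therefore measure the spread between libraries, which may be technical.

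ATAC-seq uses a transposase that cuts DNA where nucleosomes leave it open, so a peak marks a promoter, an enhancer or another exposed element. Enhancers often stand in groups around genes that a cell type uses strongly, and groups of this kind are known at genes that set a cell's identity. Tightly packed peaks also arise where near-identical gene copies stand side by side, because short reads cannot always be assigned to 1 copy.

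The libraries held 12374232 to 14236985 counts in peaks, and the PGE2 libraries differed more from each other than the pairs of the other groups did. The chi-square between 2 libraries of a group, divided by its degrees of freedom, was 1.12 for AA, 1.54 for PGE2 and 1.08 for Vehicle over members, where 1 is the value that counting error alone gives. Peaks at the ends of 11 of 11 epithelial marker genes summed to 742 CPM (counts scaled to a fixed total per library, over counts in peaks and with TMM scaling) in both AA libraries, 736 to 748 CPM in the PGE2 libraries and 744 CPM in both Vehicle libraries. Of the fibroblast markers 2 of 11 had such a peak, with 16.7 to 18.5 CPM in AA, 18.3 to 19.1 CPM in PGE2 and 18.5 to 18.7 CPM in Vehicle libraries, and Col1a1, Col1a2 and Pdgfra had none. Of the immune markers 2 of 12 had one, with 27.9 to 32.9 CPM in AA, 33.0 to 35.6 CPM in PGE2 and 26.3 to 28.6 CPM in Vehicle libraries, and Ptprc had none. Of the endothelial markers 3 of 9 had one, with 6.44 to 6.83 CPM in AA, 7.94 to 9.41 CPM in PGE2 and 7.32 to 8.12 CPM in Vehicle libraries, and Pecam1 had none. The part of such cells in the results was not tested.

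The annotated promoters of 4 genes are shown because their peaks have the smallest p of loci that lead a comparison, or, for Plaur, because the promoter peak was not called while the peak beside it was. They come from RefSeq on GRCm38.p6, which has the coordinates of the mm10 build named in the submitters' processing notes, and run from 250 bases before to 50 bases after the gene's start, 5′ to 3′ on the gene's strand. Capitals mark the AP-1 motif TGACTCA or its complement TGAGTCA and the GC box GGGCGG or its complement CCGCCC, searched on both strands, where neighbouring GC boxes may overlap. The Plaur promoter was chosen after its values were seen.
Arhgap40 promoter, chr2:158512546-158512845, plus strand: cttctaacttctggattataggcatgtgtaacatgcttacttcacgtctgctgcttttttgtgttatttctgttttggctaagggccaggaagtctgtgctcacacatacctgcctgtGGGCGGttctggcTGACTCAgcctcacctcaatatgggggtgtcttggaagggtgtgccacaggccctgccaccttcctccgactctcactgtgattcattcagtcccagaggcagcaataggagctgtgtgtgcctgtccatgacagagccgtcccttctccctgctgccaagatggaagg
Plaur promoter, chr7:24462233-24462532, plus strand: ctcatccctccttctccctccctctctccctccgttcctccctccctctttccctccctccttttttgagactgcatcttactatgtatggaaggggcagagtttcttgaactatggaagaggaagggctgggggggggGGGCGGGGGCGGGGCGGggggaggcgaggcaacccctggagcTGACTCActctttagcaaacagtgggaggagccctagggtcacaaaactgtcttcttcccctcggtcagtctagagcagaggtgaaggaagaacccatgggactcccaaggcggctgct
Lama5 promoter, chr2:180225810-180226109, minus strand: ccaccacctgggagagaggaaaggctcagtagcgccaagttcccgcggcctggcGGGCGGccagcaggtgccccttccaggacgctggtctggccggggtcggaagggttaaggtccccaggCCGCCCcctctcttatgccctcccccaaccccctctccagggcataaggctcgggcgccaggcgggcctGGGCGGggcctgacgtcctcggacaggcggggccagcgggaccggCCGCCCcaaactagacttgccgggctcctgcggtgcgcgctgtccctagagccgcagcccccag
Fads3 promoter, chr19:10041298-10041597, plus strand: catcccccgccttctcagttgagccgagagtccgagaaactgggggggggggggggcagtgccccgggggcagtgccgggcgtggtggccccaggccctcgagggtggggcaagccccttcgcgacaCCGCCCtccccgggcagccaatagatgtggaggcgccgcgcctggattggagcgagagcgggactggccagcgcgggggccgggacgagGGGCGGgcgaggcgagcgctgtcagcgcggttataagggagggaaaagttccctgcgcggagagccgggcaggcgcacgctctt

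The Arhgap40 and Plaur promoters each held 1 AP-1 motif, and the Lama5 and Fads3 promoters held none. The number of GC boxes was 1 at Arhgap40, 3 at Plaur, 4 at Lama5 and 2 at Fads3. Of the promoters in the table, 112 overlapped a member, and 15 of these (13.4%) held AP-1, against 4.204% of the 15199 promoters overlapping any consensus peak and 5.20% of all 32851 promoters. Several of the 15 are alternative starts of 1 gene or face each other, so that they rest on 11 members in 11 loci. The TEAD motif GGAATG or CATTCC was in 14.3% of the 112 promoters, 12.01% of those overlapping any peak and 14.7% of all. The GC box was in 64.3%, 62.1% and 35.7% of the same sets, and the cyclic AMP response element TGACGTCA was in 0 of the 112, 2.99% and 1.79%. These are matches of letters within 300 bases and are no evidence of binding.

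One member also covers a microRNA gene, shown because the member fell with both treatments. The mature sequence from RefSeq on GRCm38.p6 has its seed, bases 2 to 8, in capitals.
mmu-miR-3965, chr5:134326494-134326512, plus strand: uGCUUAUCagccugauguu

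Most loci were small. A single member made up 132 loci, 2 members 78 loci, 3 to 5 members 110 loci, 6 to 9 members 60 loci and 10 or more members 10 loci, with 26 members in the largest. The 180 loci with 3 or more members held 986 of the 1274 members. Loci of at least 2 members spanned a median of 8.99 kb and at most 52.2 kb. Of the members, 895 had exactly 7 other peaks around them, and 2334 peaks that met the other criteria had exactly 6 and lay just outside the rule; these 2 sets had median signals of 8.82 and 7.85 CPM among the peaks that could be tested.

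Members lay mostly away from gene ends. The share within 1 kb of either end of a protein-coding gene was 12.2% (155 of 1274), against 14.1% of the other autosomal peaks under 1500 bp, and the share overlapping a listed promoter was 7.38% against 10.8%. The share inside a coding gene was 59.5% against 55.3%. In 291 of the 390 loci no member was at a gene end, 267 loci overlapped a coding gene, 102 had the end of one within 50 kb, and 21 had none. Signal per length was higher in members, with a median of 18.7 CPM per kb against 8.36 CPM per kb for the other peaks, at median lengths of 483.5 and 528 bp; these are descriptions of peaks that share the same libraries.

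The share of each library's counts that fell in members was 1.97% and 1.94% in AA, 1.90% and 1.85% in PGE2, and 1.91% and 1.94% in Vehicle libraries. Both AA libraries were above both PGE2 libraries and above both Vehicle libraries, although AA 2 exceeded Vehicle 2 only in digits beyond those printed, and both PGE2 libraries were below both Vehicle libraries. The exact two-sided permutation p was 0.333 in each comparison, which is the smallest that 2 libraries against 2 can give. In bulk libraries, fewer cells with an open site and a site less open in each cell cannot be told apart.

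Treatment changed dense peaks in both directions. A peak was called at an adjusted p under 0.05 in edgeR's quasi-likelihood test across all 89347 peaks tested, of which 1269 were members; 5 members had too few counts. Under AA, 236 members rose and 147 fell relative to Vehicle, which is 30.2% of members against 30.5% of all peaks called in this comparison (16.7% higher and 13.8% lower). Under PGE2, 140 members rose and 114 fell relative to Vehicle, 20.0% of members against a background of 24.9% (14.3% higher and 10.6% lower). Scaling by library totals gave 115 higher and 172 lower for PGE2, so which direction held more members depended on the scaling. Calls over all peaks were not counted under library totals, so whether members shifted more than other peaks is not known. Between AA and PGE2, 105 members were higher and 43 lower in AA, 11.7% against a background of 9.95% (5.06% higher and 4.88% lower). The median log2 change of members was 0.014 for AA over Vehicle, -0.014 for PGE2 over Vehicle and 0.024 for AA over PGE2, against -0.016, -0.002 and -0.010 for all peaks tested. The first 2 comparisons share their Vehicle libraries.

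Large changes were few. At least 2-fold differences among the called members numbered 36 higher and 7 lower for AA over Vehicle, 21 higher and 0 lower for PGE2 over Vehicle, and 0 higher and 4 lower for AA over PGE2. As shares of members tested these were 2.84% and 0.552% for AA over Vehicle, against 5.37% and 2.68% of all peaks tested. For PGE2 over Vehicle they were 1.65% and 0%, against 2.79% and 1.49%, and for AA over PGE2 0% and 0.315%, against 0.375% and 0.340%. With the tool DESeq2 in place of edgeR, called members were 91 higher and 20 lower for AA over Vehicle, 57 and 15 for PGE2 over Vehicle, and 5 and 4 for AA over PGE2. DESeq2 calls over all peaks were not counted, so whether members lost more calls than other peaks is not known.

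Calls were also counted by distance to a gene end. Among the 155 members at gene ends, 27 rose and 8 fell with AA, 35 rose and 8 fell with PGE2, and 13 were higher and 16 lower in AA than in PGE2. Among the 1114 other members tested, 209 rose and 139 fell with AA, 105 rose and 106 fell with PGE2, and 92 were higher and 27 lower in AA than in PGE2. Shares higher and lower at gene ends with AA were 17.4% and 5.16% of members, against 14.6% and 7.63% of all gene-end peaks. With PGE2 they were 22.6% and 5.16%, against 32.1% and 5.33%, and for AA over PGE2 they were 8.39% and 10.3%, against 1.52% and 16.7%. Away from gene ends, shares with AA were 18.8% and 12.48% of members, against 17.1% and 15.05% of all such peaks. With PGE2 these were 9.43% and 9.52%, against 10.9% and 11.6%, and for AA over PGE2 8.26% and 2.42%, against 5.75% and 2.60%. Of the 94 members that overlap a listed promoter, 23 rose and 4 fell with AA, 32 rose and 4 fell with PGE2, and 9 were higher and 11 lower in AA than in PGE2. As shares these were 24.5% and 4.26%, 34.0% and 4.26%, and 9.57% and 11.7%, against 16.1% and 8.16%, 35.6% and 5.88%, and 1.70% and 18.2% of all 11747 tested peaks that overlap a listed promoter. Of the 11 members under promoters with an AP-1 motif, 5 rose and 0 fell with each lipid, and 2 were higher and 0 lower in AA than in PGE2. Over all 571 tested peaks under such promoters, 30.3% rose and 5.08% fell with AA, 32.9% rose and 4.38% fell with PGE2, and 8.93% were higher and as many lower in AA than in PGE2. No test sets the 11 members apart from these.

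The share of peaks called for AA varied little with the number of neighbours (29.1% to 31.4%), while its split by direction varied more. From peaks with no neighbour in the window to peaks with exactly 7, the share higher with AA was 14.1% and 20.1%, and the share lower was 17.3% and 10.5%. Peaks with 8 or more neighbours departed from this, with 15.1% higher and 14.02% lower. For PGE2 over Vehicle the share higher was 12.3% with no neighbour, 10.5% with 7 and 12.2% with 8 or more, and the share lower was 12.2%, 8.19% and 10.8%. For AA over PGE2 the share higher was 3.43% with no neighbour, 9.20% with 7 and 6.08% with 8 or more, and the share lower was 4.15%, 2.36% and 5.82%. Median signal moved along with density, from 2.92 CPM with no neighbour to 9.63 CPM with 8 or more, and its part in these shares was not tested.

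**Figure D1:**
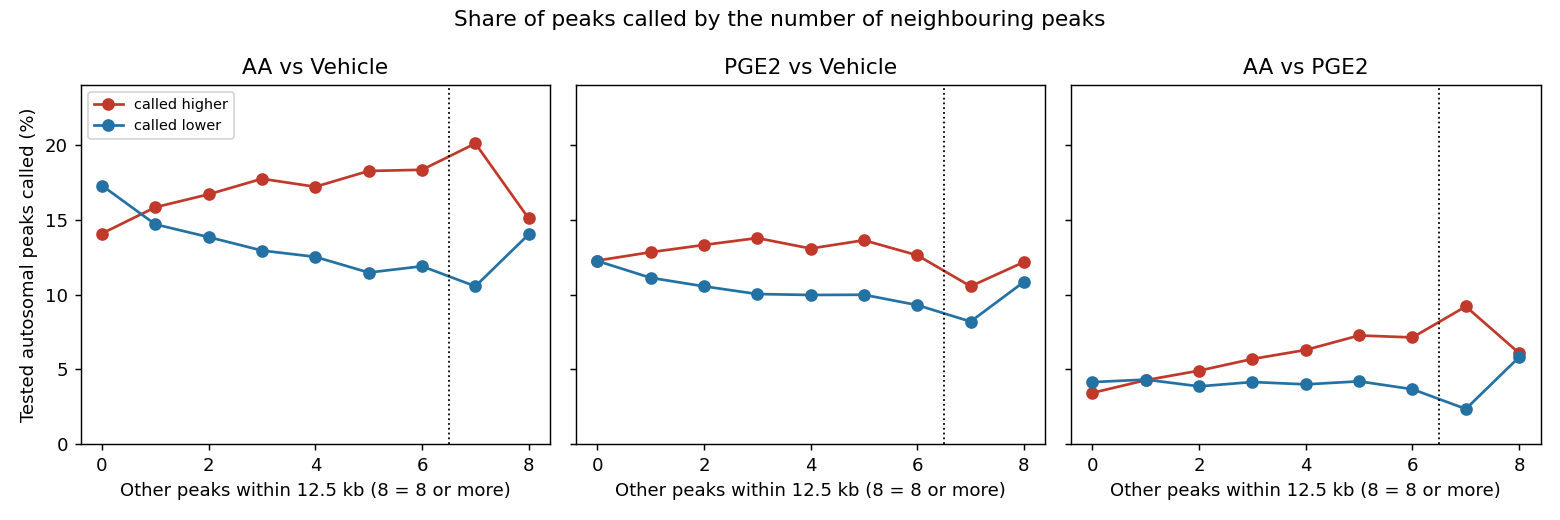
The share of tested autosomal peaks called higher (red) and called lower (blue) is plotted against the number of other peaks in the 25 kb window, in 3 panels for AA over Vehicle, PGE2 over Vehicle and AA over PGE2, with members to the right of the dotted line. The AA panel shows the share higher at 14.1% with no neighbour and 20.1% with 7, and at 15.1% with 8 or more.

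Summed over their members, loci gave a similar picture. Each locus was entered as 1 feature beside all other peaks in a table of 88468 features. With AA, 87 loci rose and 44 fell relative to Vehicle, 33.6% of the 390 against 30.6% of all features. With PGE2, 51 rose and 36 fell relative to Vehicle, 22.3% against 25.0%, and library totals gave 41 and 74. Calls over all features were not counted under library totals. Between AA and PGE2, 46 were higher and 19 lower in AA, 16.7% against 9.97%. Higher and lower features made up 16.7% and 13.9% of the table with AA, 14.4% and 10.6% with PGE2, and 5.07% and 4.90% between AA and PGE2. The groups did not overlap at any of the 131, 87 and 65 loci called, but they also did not overlap at 265, 260 and 230 of the 390 loci in the 3 comparisons. These are 67.9%, 66.7% and 59.0% of loci, against 65.3%, 61.1% and 51.9% of all features in the table. The units differ in depth, since a locus sums up to 26 members and every other feature is a single peak. The median count was 115.9 in single members and 56 in other autosomal peaks under 1500 bp. Peak by peak, the share called between AA and PGE2 was 11.7% of members against 9.95% of all peaks. The part of depth in the shares of loci was not tested.

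**Figure D2:**
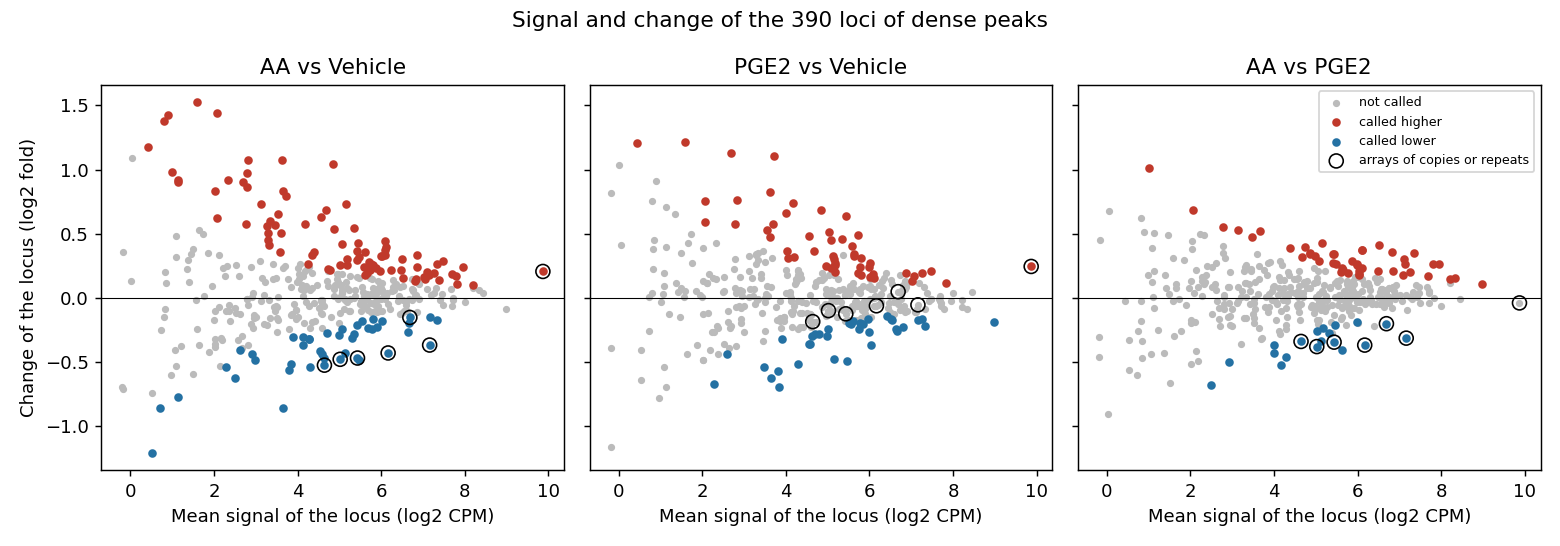
Each point is 1 of 390 loci, with its mean signal over the 6 libraries (log2 CPM) on the x axis and its log2 change on the y axis, in 3 panels for AA over Vehicle, PGE2 over Vehicle and AA over PGE2; red and blue are loci called higher and lower, grey are not called, and open circles mark 7 loci in arrays of gene copies or repeats. The AA panel holds 87 loci called higher and 44 called lower.

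With AA, the loci with the smallest p-values among those that rose were at or near Arhgap40, Calml3, Tnnt2, Plaur and Ehbp1l1. Arhgap40 encodes a GTPase-activating protein, and its locus (chr2:158510548-158513019) has 2 members, of which the second overlaps the promoter shown above. The summed signal was 37.1 and 39.3 CPM in AA, 28.9 and 30.9 CPM in PGE2, and 17.1 and 20.0 CPM in Vehicle libraries. All AA libraries were above all PGE2 libraries, and these above all Vehicle libraries. The log2 change was 1.04 ± 0.09 (SE) for AA over Vehicle (edgeR adjusted p = 9.56e-13), 0.69 ± 0.09 for PGE2 over Vehicle (adjusted p = 1.18e-07) and 0.35 ± 0.08 for AA over PGE2 (adjusted p = 0.00313). The last of these was lost without AA 2 (adjusted p = 0.0741) and with DESeq2 (adjusted p = 0.160).

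The promoter member of Arhgap40 had 16.0 and 16.6 CPM in AA, 10.1 and 13.1 CPM in PGE2, and 6.89 and 7.32 CPM in Vehicle libraries. The groups did not overlap. This peak had the smallest p of the locus, with a log2 change of 1.20 ± 0.13 for AA over Vehicle (edgeR adjusted p = 7.2e-10), and the upstream member changed by 0.94 ± 0.11 (adjusted p = 5e-09).

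Calml3, a calmodulin-like protein of epithelia, is the nearest gene to a locus of 3 members (chr13:3776668-3780129). Its signal was 46.9 and 44.1 CPM in AA, 34.6 and 33.1 CPM in PGE2, and 25.7 and 29.2 CPM in Vehicle libraries. The 3 groups did not overlap, and the AA libraries were highest. All 3 members rose with AA by nearly the same amount (log2 0.72 to 0.75), and the sum rose by 0.73 ± 0.08 over Vehicle (edgeR adjusted p = 3.96e-10) and by 0.43 ± 0.08 over PGE2 (adjusted p = 0.00015). The change of PGE2 over Vehicle was 0.30 ± 0.08 (adjusted p = 0.004), which was lost without Vehicle 1 (adjusted p = 0.153) and with DESeq2 (adjusted p = 0.152).

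Plaur encodes the urokinase receptor, a surface protein that focuses plasminogen activation at the cell front, and is a gene of the fetal and regenerative list. Its 3 members (chr7:24461268-24470874) summed to 82.5 and 82.0 CPM in AA, 65.4 and 61.5 CPM in PGE2, and 60.4 and 60.3 CPM in Vehicle libraries. The AA libraries stood apart, while the PGE2 and Vehicle libraries lay close together. It changed on the log2 scale by 0.45 ± 0.06 for AA over Vehicle (edgeR adjusted p = 3.43e-08), 0.37 ± 0.06 for AA over PGE2 (adjusted p = 2.39e-05) and 0.07 ± 0.06 for PGE2 over Vehicle (adjusted p = 0.407).

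The 3 Plaur members did not move equally. The member over the promoter shown above had 26.2 and 25.1 CPM in AA, 23.7 and 21.1 CPM in PGE2, and 23.1 and 21.7 CPM in Vehicle libraries, a log2 change of 0.20 ± 0.09 for AA over Vehicle that was not called (edgeR adjusted p = 0.0962). The member just before it had 48.9 and 49.9 CPM in AA, 36.6 and 37.3 CPM in PGE2, and 34.3 and 35.4 CPM in Vehicle libraries and rose by 0.50 ± 0.07 (adjusted p = 2.03e-07). The farthest member, about 8 kb beyond the promoter, had 7.32 and 6.93 CPM in AA, 5.19 and 3.09 CPM in PGE2, and 2.99 and 3.13 CPM in Vehicle libraries and rose by 1.22 ± 0.19 (adjusted p = 3.47e-06). The weakest of the 3 peaks thus had the greatest relative change.

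At 2 further loci the AA libraries were also highest. The locus nearest to Tnnt2, which encodes cardiac troponin T, had 15.2 and 16.9 CPM in AA, 13.2 and 13.7 CPM in PGE2, and 7.58 and 7.63 CPM in Vehicle libraries. It rose by 1.07 ± 0.12 with AA (edgeR adjusted p = 2.51e-09) and by 0.82 ± 0.13 with PGE2 (adjusted p = 2.4e-06), with 1 of 2 members called. The locus in Ehbp1l1, an adaptor of vesicle transport to the apical surface, had 29.6 and 33.6 CPM in AA, 24.8 and 25.8 CPM in PGE2, and 18.5 and 20.7 CPM in Vehicle libraries. It rose by 0.69 ± 0.09 with AA (adjusted p = 7.11e-08) and by 0.37 ± 0.09 with PGE2 (adjusted p = 0.00269, lost without Vehicle 1 at 0.0923 and with DESeq2 at 0.113).

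The locus nearest to Gtf2i, which encodes the transcription factor TFII-I, fell with both lipids. It holds the microRNA shown above in its largest member (chr5:134325975-134326716). The 3 members summed to 9.22 and 9.55 CPM in AA, 11.3 and 10.8 CPM in PGE2, and 17.8 and 16.3 CPM in Vehicle libraries. All treated libraries were below both Vehicle libraries, and the AA libraries below the PGE2 libraries. The log2 change was -0.86 ± 0.12 for AA over Vehicle (edgeR adjusted p = 1.11e-07), -0.62 ± 0.11 for PGE2 over Vehicle (adjusted p = 3.72e-05) and -0.24 ± 0.13 for AA over PGE2 (adjusted p = 0.251). Accessibility says nothing here of the level of mmu-miR-3965.

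With PGE2, the smallest p-value among loci that rose was at Lama5, the α5 chain of the laminins of the epithelial basement membrane. Its 3 members (chr2:180220190-180228185) summed to 47.0 and 43.4 CPM in AA, 49.1 and 55.6 CPM in PGE2, and 32.7 and 34.6 CPM in Vehicle libraries. All treated libraries were above the Vehicle libraries, and PGE2 2 was highest. The fitted log2 changes were 0.64 ± 0.07 for PGE2 over Vehicle (edgeR adjusted p = 6.45e-09) and 0.43 ± 0.07 for AA over Vehicle (adjusted p = 1.3e-05). The difference of AA over PGE2, -0.21 ± 0.07 (adjusted p = 0.0478), was lost when any single library other than PGE2 1 was left out (without PGE2 2, adjusted p = 0.459), with the replicate block (0.0515), with other scalings (0.0673 and 0.115), when AA and PGE2 were fitted alone (0.0927) and with DESeq2 (adjusted p = 0.496).

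The Lama5 member that covers the promoter shown above had 15.3 and 17.0 CPM in AA, 20.2 and 26.0 CPM in PGE2, and 12.7 and 11.7 CPM in Vehicle libraries. The groups did not overlap, and PGE2 2 was again highest. Its log2 change was 0.92 ± 0.11 for PGE2 over Vehicle (edgeR adjusted p = 6.4e-08), 0.39 ± 0.12 for AA over Vehicle (adjusted p = 0.0103) and -0.52 ± 0.11 for AA over PGE2 (adjusted p = 0.0012).

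Id2 encodes an inhibitor of basic helix-loop-helix factors and is a target of BMP signalling. The 1 member nearest to it (chr12:25098607-25099031) had 12.9 and 15.1 CPM in AA, 15.5 and 19.3 CPM in PGE2, and 9.11 and 7.02 CPM in Vehicle libraries. All treated libraries were above both Vehicle libraries. In log2 units the change was 1.11 ± 0.13 for PGE2 over Vehicle (edgeR adjusted p = 6.88e-08) and 0.79 ± 0.14 for AA over Vehicle (adjusted p = 2.53e-05). A single member with no coding gene within 50 kb (chr17:29434645-29434861) had 7.88 and 6.53 CPM in AA, 9.39 and 7.48 CPM in PGE2, and 3.91 and 3.82 CPM in Vehicle libraries. It rose by 1.13 ± 0.17 with PGE2 (adjusted p = 1.83e-06) and by 0.91 ± 0.18 with AA (adjusted p = 7.34e-05).

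Among loci that fell with PGE2, Atf3 and the locus across Dnajc11 and Thap3 fell with AA too. Atf3, a stress-induced partner of the AP-1 family, had 2 members summing to 13.3 and 12.6 CPM in AA, 11.2 and 11.6 CPM in PGE2, and 17.0 and 20.1 CPM in Vehicle libraries. All treated libraries were below both Vehicle libraries. Its log2 change was -0.70 ± 0.11 for PGE2 over Vehicle (edgeR adjusted p = 5.87e-06) and -0.52 ± 0.11 for AA over Vehicle (adjusted p = 0.000263, and 0.0556 with DESeq2).

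At Krt8, a keratin of simple epithelia, 9 members (chr15:102002902-102018359) formed one of the strongest loci. They summed to 511.8 and 498.5 CPM in AA, 466.6 and 471.6 CPM in PGE2, and 533.7 and 536.3 CPM in Vehicle libraries. The 3 groups did not overlap, and PGE2 was lowest. The log2 change was small, -0.19 ± 0.03 for PGE2 over Vehicle (edgeR adjusted p = 2.75e-05, and 0.0879 with DESeq2), and -0.08 ± 0.03 for AA over Vehicle (adjusted p = 0.0564). With PGE2, 5 of the 9 members fell, the most at the member 102009111-102009565 with -0.46 ± 0.07 (adjusted p = 4.96e-06), while both members at the far end changed by -0.11 ± 0.05 and -0.09 ± 0.06 and were not called. The locus across Dnajc11, a mitochondrial co-chaperone, and Thap3 fell by 0.37 on the log2 scale with PGE2 (SE 0.06, adjusted p = 4.19e-06), with 58.6 and 55.5 CPM in PGE2 against 73.4 and 73.9 CPM in Vehicle libraries. That locus was also called lower in AA than in Vehicle and higher in AA than in PGE2. Both of these calls were lost with DESeq2 (log2 -0.17 and 0.20, adjusted p = 0.354 and 0.385). They were also lost without AA 2, Vehicle 1 or Vehicle 2.

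**Figure D3:**
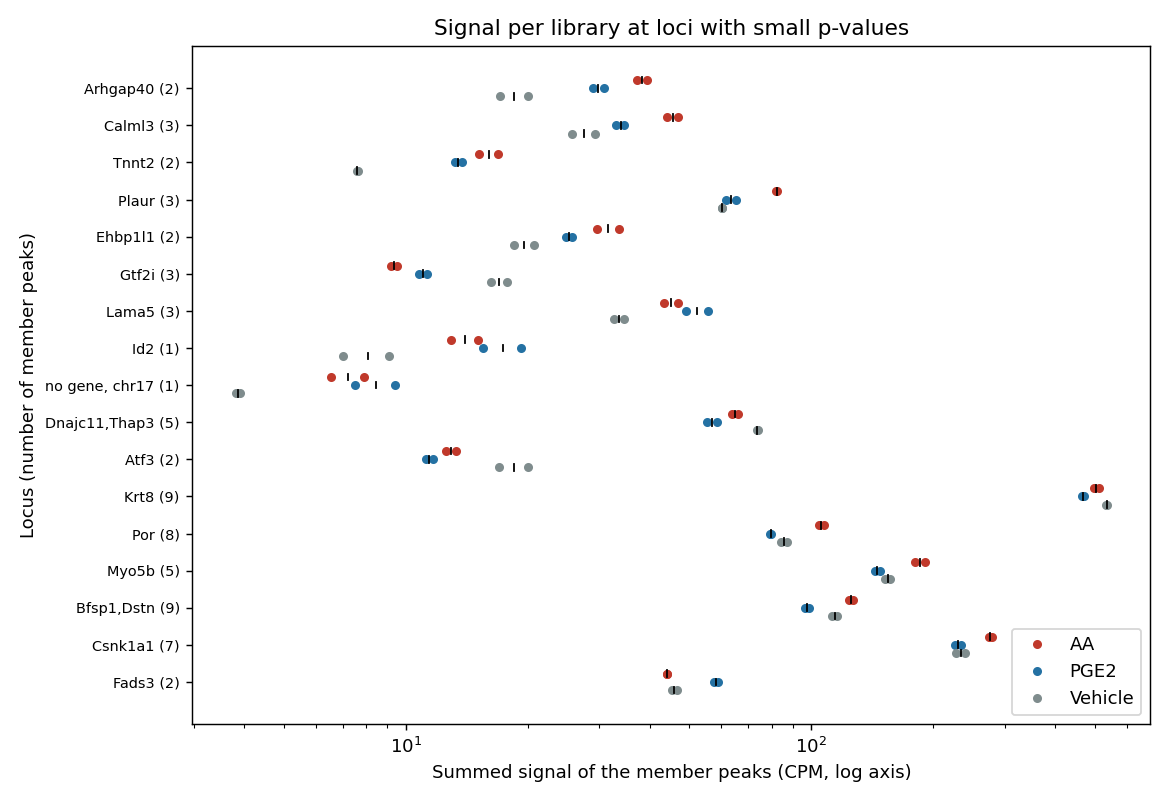
Summed signal of the member peaks (CPM, log axis) in each library at 17 loci with small p-values outside arrays of copies, with AA (red), PGE2 (blue) and Vehicle (grey) points for 2 libraries each and a black bar at each group's mean; the number of members stands in parentheses. At Arhgap40 the AA points lie at 37.1 and 39.3 CPM and the Vehicle points at 17.1 and 20.0 CPM, and at Gtf2i both treated groups lie below Vehicle.

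The direct comparison of the lipids was led by loci of several members that were higher in AA. Por encodes the reductase that passes electrons to microsomal cytochromes P450. Its 8 members (chr5:135670755-135686746), all inside the gene, summed to 104.4 and 107.7 CPM in AA, 79.4 and 79.5 CPM in PGE2, and 84.2 and 87.2 CPM in Vehicle libraries. The AA libraries were the highest and the PGE2 libraries the lowest, with no overlap. Log2 changes were 0.42 ± 0.05 for AA over PGE2 (edgeR adjusted p = 1.17e-06), 0.31 ± 0.05 for AA over Vehicle (adjusted p = 7.75e-06) and -0.11 ± 0.05 for PGE2 over Vehicle (adjusted p = 0.131). Members ranged widely for AA over Vehicle, and the first along the chromosome had 8.30 and 7.99 CPM in AA, 4.50 and 5.25 CPM in PGE2, and 2.83 and 4.04 CPM in Vehicle libraries, a rise of 1.24 ± 0.18 (adjusted p = 3.14e-07). The neighbours at 135674346-135674689 and 135674899-135675415 changed by -0.15 ± 0.17 and -0.19 ± 0.14 and were not called.

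Myo5b, the motor of apical recycling endosomes whose loss causes microvillus inclusion disease, had 5 members (chr18:74536221-74546944) summing to 180.1 and 190.8 CPM in AA, 147.4 and 143.6 CPM in PGE2, and 151.9 and 156.6 CPM in Vehicle libraries. Here too AA was highest and PGE2 lowest. All 5 members were higher in AA than in PGE2 (log2 0.26 to 0.58), and the sum differed by 0.35 ± 0.04 (edgeR adjusted p = 1.57e-06). The change over Vehicle was 0.27 ± 0.04 for AA (adjusted p = 7e-06) and -0.08 ± 0.05 for PGE2 (adjusted p = 0.175). The member 74537113-74537625 had 19.2 and 19.6 CPM in AA, 12.51 and 13.43 CPM in PGE2, and 7.73 and 8.85 CPM in Vehicle libraries, and it rose over Vehicle with both, by 1.22 ± 0.12 with AA (adjusted p = 2.61e-11) and 0.64 ± 0.13 with PGE2 (adjusted p = 0.000104).

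The locus across Bfsp1, a lens filament protein, and Dstn, an actin-depolymerizing factor, was lowest in PGE2. It had 123.7 and 126.7 CPM in AA, 96.7 and 98.7 CPM in PGE2, and 115.9 and 112.7 CPM in Vehicle libraries. The log2 change was 0.36 ± 0.05 for AA over PGE2 (edgeR adjusted p = 4.82e-06) and -0.23 ± 0.05 for PGE2 over Vehicle (adjusted p = 0.000437, and 0.102 with DESeq2). The 7 members nearest to Csnk1a1, a kinase of the β-catenin destruction complex, summed to 274.1 and 278.9 CPM in AA, 226.0 and 234.0 CPM in PGE2, and 227.9 and 239.4 CPM in Vehicle libraries. At that locus the AA libraries stood alone above the others, by 0.27 ± 0.04 over PGE2 (adjusted p = 2.29e-05) and 0.24 ± 0.04 over Vehicle (adjusted p = 5.34e-06).

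Fads3, a member of the fatty acid desaturase family, was the locus with the smallest p among those lower in AA than in PGE2. Its 2 members (chr19:10041232-10050778) summed to 44.0 and 44.1 CPM in AA, 58.8 and 57.7 CPM in PGE2, and 46.6 and 45.3 CPM in Vehicle libraries. Only the PGE2 libraries stood apart. The summed log2 change was -0.40 ± 0.06 for AA over PGE2 (edgeR adjusted p = 4.12e-05), 0.34 ± 0.06 for PGE2 over Vehicle (adjusted p = 5.69e-05) and -0.06 ± 0.07 for AA over Vehicle (adjusted p = 0.516). The member over the promoter shown above carried the rise, with 18.01 and 17.21 CPM in AA, 26.5 and 26.1 CPM in PGE2, and 17.1 and 14.3 CPM in Vehicle libraries, a log2 change of 0.74 ± 0.10 for PGE2 over Vehicle (adjusted p = 1.56e-07). The downstream member changed by 0.08 ± 0.08 in that comparison (adjusted p = 0.506).

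Members of 1 locus often went different ways. With pairs of all distances pooled, adjacent peaks elsewhere did so about as often in the comparisons with Vehicle. Shares by distance, which were less alike, are given below. Where both peaks of an adjacent pair were called, 81.2% of pairs of members had the same direction with AA and 80.9% with PGE2. Other adjacent autosomal pairs, which stood farther apart, gave 81.0% and 81.4%. Between AA and PGE2 the shares were 96.4% of pairs of members and 86.0% of other pairs. Under AA, 97 loci had at least 2 members called against Vehicle, of which 37 had all called members higher, 25 had all lower and 35 had both directions. Under PGE2 there were 62 such loci, 23 higher, 18 lower and 21 mixed, and between AA and PGE2 there were 31, with 21 higher, 4 lower and 6 mixed. In 26 of the 35 mixed loci under AA, and in 17 of the 21 under PGE2, the summed locus was not called. Among 179 loci with 3 or more tested members, every member was called in 3 for AA, 0 for PGE2 and 1 for AA over PGE2, and the median standard deviation of the log2 change among the members of a locus was 0.28, 0.26 and 0.21.

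The locus at Thra, the thyroid hormone receptor α, shows this. Its 10 members (chr11:98740160-98763808) summed to 174.0 and 174.6 CPM in AA, 177.3 and 181.8 CPM in PGE2, and 183.5 and 178.5 CPM in Vehicle libraries, and the sum was called in none of the 3 comparisons (edgeR adjusted p = 0.358 for AA over Vehicle). Within it, the member 98741767-98742349 had 6.05 and 5.87 CPM in AA, 7.86 and 12.4 CPM in PGE2, and 4.06 and 3.43 CPM in Vehicle libraries. All treated libraries were above Vehicle there, and PGE2 2 was far above PGE2 1. It rose by 1.43 ± 0.20 with PGE2 (adjusted p = 5.62e-06) and 0.67 ± 0.22 with AA (adjusted p = 0.0216), whereas the member 98743555-98744111, under 2 kb away, fell by 0.45 on the log2 scale with AA (SE 0.13, adjusted p = 0.00731) and the member at the far end rose by 0.40 ± 0.10 (adjusted p = 0.0013).

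A locus with no coding gene within 50 kb (chr2:144176690-144188495) split along its length. Its first member had 7.81 and 6.69 CPM in AA, 6.03 and 8.18 CPM in PGE2, and 10.6 and 10.1 CPM in Vehicle libraries, and its last had 15.3 and 13.4 CPM in AA, 11.1 and 13.3 CPM in PGE2, and 7.66 and 8.54 CPM in Vehicle libraries. The treated libraries were below Vehicle at one end and above it at the other. The log2 change for AA over Vehicle was -0.51 ± 0.14 (edgeR adjusted p = 0.005) and -0.21 ± 0.08 (adjusted p = 0.0404) at the first pair of members, and 0.77 ± 0.12 (adjusted p = 1.17e-06) and 0.83 ± 0.13 (adjusted p = 1.61e-06) at the last pair. The sum changed by 0.12 ± 0.06 (adjusted p = 0.128).

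Per2, a component of the circadian clock, was mixed under PGE2. The gene-end member 91459070-91459868 had 77.3 and 87.1 CPM in AA, 85.5 and 98.9 CPM in PGE2, and 70.2 and 70.7 CPM in Vehicle libraries, and it rose by 0.39 ± 0.07 with PGE2 (edgeR adjusted p = 6.07e-05). The member 91456118-91457004 had 70.7 and 68.1 CPM in AA, 62.6 and 61.5 CPM in PGE2, and 78.2 and 79.0 CPM in Vehicle libraries, and it fell by 0.34 on the log2 scale (SE 0.06, adjusted p = 1.03e-05). Both moved the same way under AA, by 0.22 ± 0.07 and -0.18 ± 0.06 (adjusted p = 0.0118 and 0.0126).

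Sypl, a synaptophysin-like vesicle protein, was also mixed under PGE2. In the separate comparison of AA over Vehicle, 4 of the 6 members of its locus fell. The gene-end member, which covers the promoters of Sypl and 4933406C10Rik, rose with PGE2. It had 51.0 and 52.0 CPM in AA, 51.5 and 69.6 CPM in PGE2, and 41.6 and 40.2 CPM in Vehicle libraries. Its log2 change was 0.57 ± 0.14 for PGE2 over Vehicle (edgeR adjusted p = 0.0362). PGE2 2 was the high library in that peak. The same library was high at the promoter member of Zfhx3, a homeobox factor, with 19.6 and 21.3 CPM in AA, 24.5 and 33.6 CPM in PGE2, and 17.2 and 16.9 CPM in Vehicle libraries. It was also high at the member 30063622-30064477 near Hes1, a Notch target, with 21.2 and 24.8 CPM in AA, 32.5 and 52.0 CPM in PGE2, and 20.5 and 17.2 CPM in Vehicle libraries. At Hes1 that member was not called (log2 1.16 ± 0.31 for PGE2 over Vehicle, adjusted p = 0.0858). The summed Zfhx3 locus rose by 0.27 ± 0.08 with PGE2 (adjusted p = 0.0113), which was lost without PGE2 2 (adjusted p = 0.316), without Vehicle 1 (0.0987), without Vehicle 2 (0.119), when Vehicle and PGE2 were fitted alone (0.0508) and with DESeq2 (0.155).

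Muc13, a transmembrane mucin of the apical surface, and Rara, the retinoic acid receptor α, were mixed under AA. Of 6 Muc13 members, 3 rose and 2 fell with AA (log2 0.36 to -0.34), and the sum, with 162.6 and 159.3 CPM in AA, 140.3 and 139.1 CPM in PGE2, and 152.1 and 161.4 CPM in Vehicle libraries, was 0.21 ± 0.04 higher in AA than in PGE2 (edgeR adjusted p = 0.00201, and 0.196 with DESeq2). At Rara, 2 of 5 members rose and 2 fell with AA, and the weak members that fell had 0.90 to 1.62 CPM in AA, 1.08 to 1.45 CPM in PGE2 and 2.14 to 2.76 CPM in Vehicle libraries.

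**Figure D4:**
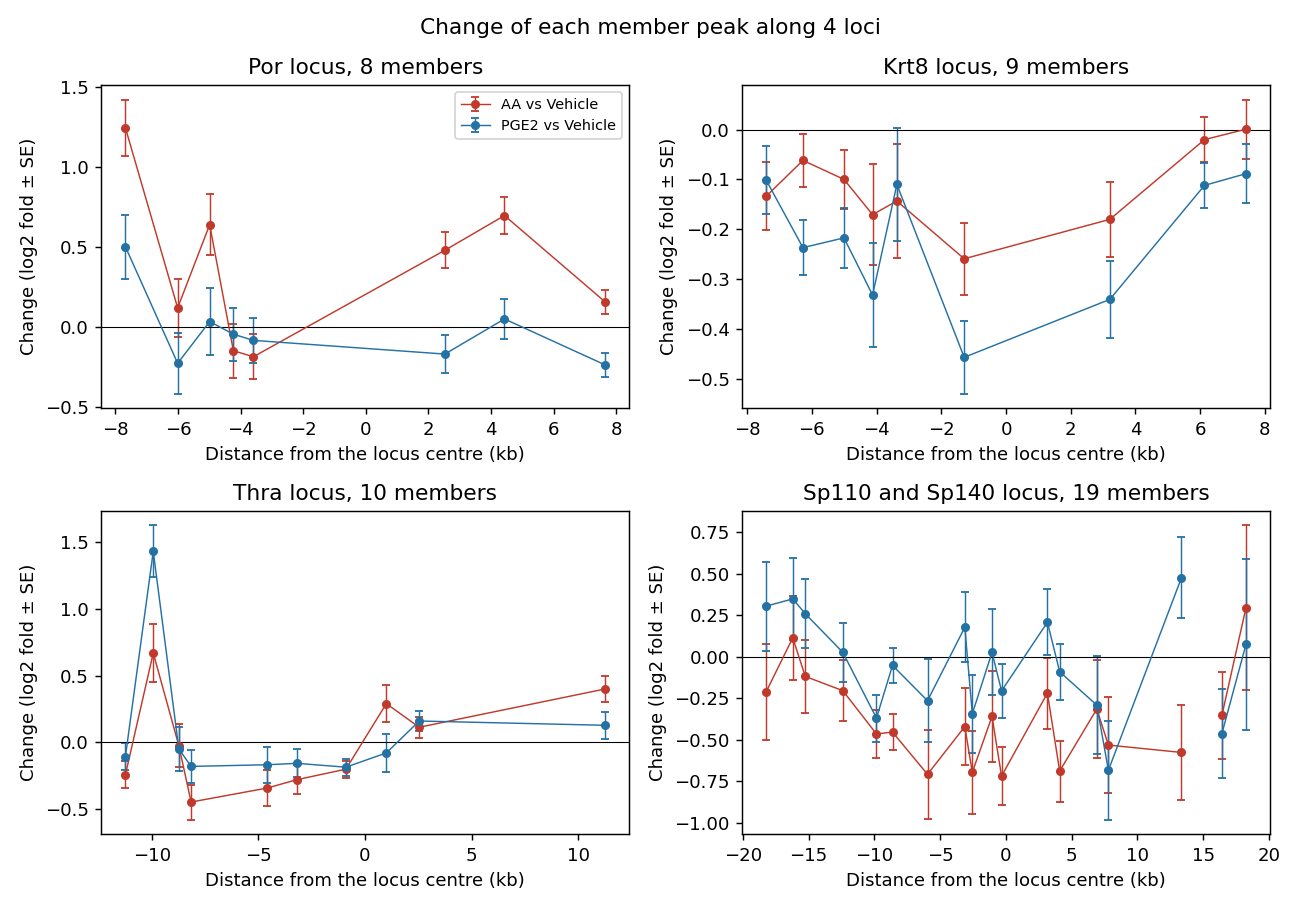
Log2 change over Vehicle of each tested member along 4 loci, for AA (red) and PGE2 (blue) with bars of 1 SE, against the distance from the locus centre in kb; 1 of the 19 members at Sp110 and Sp140 was not tested and is not drawn. At Por the AA values run from -0.19 to 1.24, at Krt8 the PGE2 values lie between -0.46 and -0.09, and at Thra 1 member reaches 1.43 with PGE2 while its neighbours lie near or below 0.

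Changes of adjacent members were correlated, most of all under 1 kb apart. Across 792 pairs of adjacent members of 1 locus, Pearson's r of the log2 changes was 0.36 for AA over Vehicle, 0.26 for PGE2 over Vehicle and 0.34 for AA over PGE2. The 49594 adjacent pairs of other autosomal peaks within the same reach gave 0.30, 0.26 and 0.17, but the median distance was 1752.5 bp in pairs of members and 4690.5 bp in the others. Under 1 kb apart, r was 0.58, 0.41 and 0.51 over 152 pairs of members and 0.47, 0.40 and 0.31 over 3162 other pairs. At 1 to 2 kb, r was 0.28, 0.21 and 0.31 over 303 pairs of members and 0.42, 0.34 and 0.26 over 8197 other pairs. At 2 to 4 kb it was 0.25, 0.19 and 0.29 over 230 pairs of members and 0.32, 0.26 and 0.17 over 10561 others, and at 4 kb or more 0.35, 0.18 and 0.18 over 107 and 0.24, 0.22 and 0.13 over 27674, at median distances of 5286.5 and 7160.25 bp. For both lipids over Vehicle, the members' r was thus below that of other pairs between 1 and 4 kb. Yet the 2 changes of a pair lay closer together in members. Their median absolute difference with AA was 0.261 at 1 to 2 kb and 0.257 at 2 to 4 kb, against 0.324 and 0.355. With PGE2 it was 0.247 and 0.219, against 0.300 and 0.317. Members also had more signal, with a mean log2 CPM of 3.47 and 3.30 against 2.73 and 2.66 in these bins. The part of signal in r was not tested. Where both peaks of a pair under 1 kb were called, members had the same direction in 15 of 15 pairs for AA, 10 of 10 for PGE2 and 6 of 6 between them, against 92.0%, 95.8% and 97.8% of other pairs. At 1 to 2 kb this held in 30 of 33, 17 of 22 and 13 of 13 pairs of members, against 88.2%, 91.0% and 91.4% of other pairs. At 2 to 4 kb it held in 17 of 23, 6 of 8 and 5 of 6, against 82.2%, 79.8% and 86.4%. At least 4 kb apart this held in 7 of 14, 5 of 7 and 3 of 3 pairs of members, against 76.8%, 77.0% and 80.9% of other pairs. These coefficients are across peaks, which share libraries and, when close, can share read pairs, since a pair that overlapped several peaks was counted in each.

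**Figure D5:**
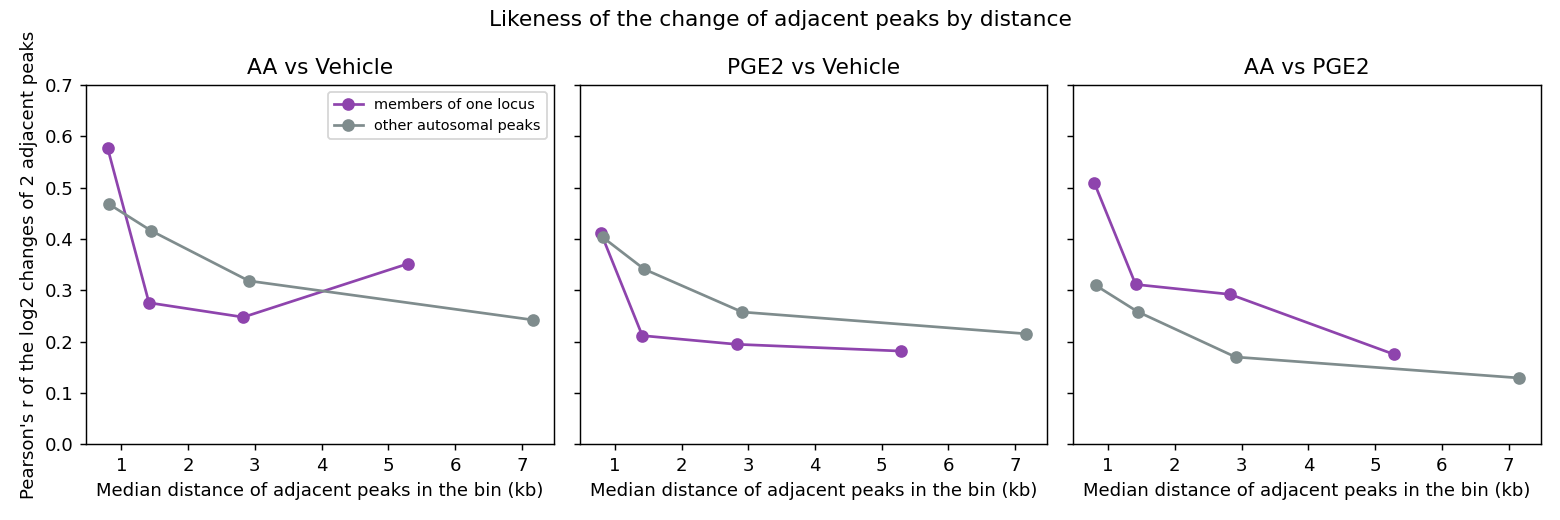
Pearson's r of the log2 changes of 2 adjacent peaks against their median distance in each of 4 distance bins, for members of 1 locus (purple) and other autosomal peaks (grey), in 3 panels for AA over Vehicle, PGE2 over Vehicle and AA over PGE2. The nearest bin is highest in every panel, with members at 0.58, 0.41 and 0.51.

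The loci with the most members were of 2 kinds. Those in Zfhx3 (11 members), near Krt19 (10), in Thra (10) and in Tpd52 (10) lie outside arrays of copies. Krt19, a keratin of crypts and ducts, had 316.6 and 306.2 CPM in AA, 280.6 and 281.6 CPM in PGE2, and 296.1 and 292.7 CPM in Vehicle libraries. AA was highest and PGE2 lowest, and the difference of AA over PGE2 was 0.15 ± 0.04 (edgeR adjusted p = 0.00762), which was lost without AA 1 (adjusted p = 0.0932) and with DESeq2 (adjusted p = 0.327). Tpd52, which encodes a protein of vesicle trafficking, had 107.8 and 109.2 CPM in AA, 102.8 and 102.4 CPM in PGE2, and 106.9 and 111.9 CPM in Vehicle libraries and was called in no comparison (adjusted p = 0.876 for AA over Vehicle and 0.178 for PGE2 over Vehicle), although its farthest member rose with AA by 0.86 ± 0.18 (adjusted p = 0.000206) and another fell by 0.83 on the log2 scale (SE 0.21, adjusted p = 0.00154).

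The others were listed by position, after the data were seen, as standing in arrays of gene copies or repeats. The assignment of reads among near-identical copies is uncertain there, and it was not measured. There were 7 such loci with 98 members. On chromosome 1, the locus across Sp110 and Sp140, nuclear body proteins induced by interferon, has 19 members (chr1:85582874-85619580) and had 59.6 and 58.9 CPM in AA, 79.4 and 73.6 CPM in PGE2, and 77.6 and 82.0 CPM in Vehicle libraries. The AA libraries were alone low. The estimated log2 change was -0.43 ± 0.06 for AA over Vehicle (edgeR adjusted p = 1.21e-07) and -0.37 ± 0.06 for AA over PGE2 (adjusted p = 4.17e-05, and 0.0544 with DESeq2). The loci at A530032D15Rik (13 members) and at Gm38510 and Gm7592 (16 members) nearby fell with AA by 0.47 and 0.48 on the log2 scale relative to Vehicle (adjusted p = 1.1e-06 and 6.32e-06). Relative to PGE2 their AA values were lower by log2 differences of -0.35 and -0.38 (adjusted p = 0.00111 and 0.00136), calls that were lost without AA 1 (0.0758 and 0.0863) and with DESeq2 (0.154 and 0.147).

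Outside chromosome 1, the same pattern was seen at chr9:3012363-3025940, which has no coding gene within 50 kb, with 122.0 and 120.8 CPM in AA, 161.2 and 140.5 CPM in PGE2, and 154.5 and 158.7 CPM in Vehicle libraries. Its log2 change was -0.37 ± 0.05 for AA over Vehicle (edgeR adjusted p = 4.06e-07) and -0.31 ± 0.05 for AA over PGE2 (adjusted p = 8e-05, and 0.0828 with DESeq2). The largest locus, 26 members in Sfi1, which encodes a centrosomal protein (chr11:3131846-3184053), went the other way, with 969.5 and 967.8 CPM in AA, 1039 and 951.7 CPM in PGE2, and 814.2 and 864.9 CPM in Vehicle libraries. It rose by 0.21 ± 0.04 with AA (adjusted p = 6.94e-05, and 0.0618 with DESeq2) and 0.25 ± 0.04 with PGE2 (adjusted p = 1.02e-05). The 13 members at Pisd, the mitochondrial phosphatidylserine decarboxylase, had 95.9 and 93.5 CPM in AA, 111.3 and 106.5 CPM in PGE2, and 104.0 and 106.6 CPM in Vehicle libraries, and their AA calls (adjusted p = 0.0179 over Vehicle and 0.00647 over PGE2) were lost when either AA library was left out (0.0547 to 0.125) and with DESeq2 (0.415 and 0.351). The call over Vehicle was also lost without Vehicle 1 (0.0695) or Vehicle 2 (0.179). Without all 7 loci, members called were 229 higher and 128 lower of 1172 tested for AA over Vehicle. They were 130 and 113 for PGE2 over Vehicle, and 105 and 29 for AA over PGE2. As shares these were 19.5% and 10.9%, 11.1% and 9.64%, and 8.96% and 2.47%. Shares of all peaks tested were 16.7% and 13.8%, 14.3% and 10.6%, and 5.06% and 4.88%.

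Dense loci stood at 39 of 312 genes on lists of intestinal pathways and lineages, chosen with earlier results known. The matching share of all genes is not given here, so this count does not show whether listed genes have more dense loci than others. The counts by list below are small and stand beside 22.3% of all 390 loci higher and 11.3% lower with AA, 13.1% and 9.23% with PGE2, and 11.8% and 4.87% for AA over PGE2. Among 11 loci at genes of cell junctions, keratins and polarity, 3 rose and 1 fell with AA, 1 rose and 2 fell with PGE2, and 2 were higher and 0 lower in AA than in PGE2, with median log2 changes of 0.08, -0.03 and 0.10 against medians of 0.03, 0.00 and 0.03 over all 390 loci. Cdh1, Prss8 and Spint1 rose with AA, Cldn3 fell with both lipids, Krt8 fell with PGE2, and Krt8 and Krt19 were higher in AA than in PGE2; Cdh1 and Spint1 are named after their values were seen. The Krt8 call between the lipids (adjusted p = 0.0339) was lost without either AA library (0.177 and 0.0600), PGE2 1 (0.0535) or Vehicle 1 (0.0687) and with DESeq2 (0.491). Cldn3, a tight junction claudin, had 20.7 and 21.0 CPM in AA, 22.7 and 20.5 CPM in PGE2, and 28.4 and 27.2 CPM in Vehicle libraries, and fell by 0.42 on the log2 scale with AA (SE 0.09, edgeR adjusted p = 0.000346, and 0.0632 with DESeq2). With PGE2 it changed by -0.36 (adjusted p = 0.0021, and 0.104 with DESeq2). The locus with Prss8, a membrane-anchored protease of the apical surface, had 163.0 and 157.1 CPM in AA, 160.5 and 158.8 CPM in PGE2, and 137.9 and 141.8 CPM in Vehicle libraries. It rose by 0.19 to 0.20 with either lipid (adjusted p = 0.000652 for AA and 0.00108 for PGE2, and 0.124 and 0.175 with DESeq2).

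Of 7 loci at crypt stem cell and Wnt genes, 0 were called with AA and 1 fell with PGE2, Rgmb, a BMP co-receptor, with 5.07 and 6.28 CPM in AA, 4.88 and 5.55 CPM in PGE2, and 6.97 and 7.17 CPM in Vehicle libraries (edgeR adjusted p = 0.0425). That call was lost when any PGE2 or Vehicle library was left out and with DESeq2 (adjusted p = 0.361). Hopx, a homeodomain protein of reserve stem cells, had 123.8 and 120.0 CPM in AA, 112.0 and 127.0 CPM in PGE2, and 113.7 and 111.3 CPM in Vehicle libraries and was not called with AA (adjusted p = 0.0833). The median log2 change of the 7 was 0.02 with AA and -0.04 with PGE2.

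Of 4 loci at fetal and regenerative genes, 2 rose with AA, Plaur and Anxa2, and 1 fell with PGE2, Itga6. Plaur and Krt19 were higher in AA than in PGE2. The Itga6 call (adjusted p = 0.0116) was lost without Vehicle 2 (0.171) and with DESeq2 (0.296). Anxa2, a membrane-binding annexin, had 9.36 and 7.26 CPM in AA, 6.64 and 6.48 CPM in PGE2, and 5.05 and 6.18 CPM in Vehicle libraries (log2 0.58 ± 0.16, edgeR adjusted p = 0.00393), a call lost without AA 1 (adjusted p = 0.180), without Vehicle 1 (0.106) and with DESeq2 (0.152). Of 3 loci at YAP and TEAD genes, Tead1, a DNA-binding partner of YAP, rose with both lipids and Vgll4, a repressive TEAD cofactor, fell with AA. The Tead1 member had 4.29 and 4.08 CPM in AA, 3.36 and 3.39 CPM in PGE2, and 1.45 and 1.45 CPM in Vehicle libraries. Every treated library was above both Vehicle libraries, and the rise was 1.52 ± 0.25 with AA (adjusted p = 4.5e-06) and 1.21 ± 0.26 with PGE2 (adjusted p = 0.000432). Vgll4 changed by -0.32 ± 0.10 with AA (adjusted p = 0.00987), which was lost without AA 1 (0.113), without Vehicle 1 (0.163) and with DESeq2 (0.246).

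Of 5 loci at AP-1 and immediate early genes, 1 rose and 2 fell with each lipid. Zfp36l1, named after its values were seen, rose with both, and Atf3, described above, and Btg2, an antiproliferative gene, fell. Btg2 had 93.1 and 92.7 CPM in AA, 95.5 and 93.5 CPM in PGE2, and 113.2 and 110.5 CPM in Vehicle libraries. Its log2 change was -0.27 ± 0.05 with AA (edgeR adjusted p = 4.32e-05) and -0.24 ± 0.05 with PGE2 (adjusted p = 0.000231), and both calls were lost with DESeq2 (0.0634 and 0.0784). Of 4 BMP and TGF-β loci, 2 rose with AA, Id2 and Id1, and 1 rose and 1 fell with PGE2, Id2 and Bmpr1a. The Bmpr1a call (adjusted p = 0.00394) was lost without Vehicle 2 (0.151) and with DESeq2 (0.177). Id1, a second inhibitor of helix-loop-helix factors, had 97.9 and 99.3 CPM in AA, 84.1 and 86.8 CPM in PGE2, and 83.9 and 85.6 CPM in Vehicle libraries. Only the AA libraries stood apart, by 0.22 ± 0.05 over Vehicle (adjusted p = 0.00103, and 0.121 with DESeq2).

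The remaining lists had 1 or 2 loci each. Klf5, a factor of crypt proliferation and the only identity factor with a dense locus, had 66.2 and 68.1 CPM in AA, 56.7 and 55.4 CPM in PGE2, and 65.2 and 69.7 CPM in Vehicle libraries. It fell by 0.27 on the log2 scale with PGE2 (SE 0.06, edgeR adjusted p = 0.000621, and 0.0919 with DESeq2) and changed by -0.01 ± 0.06 with AA (adjusted p = 0.938). Among the cyclic AMP and eicosanoid genes, Alox15, a lipoxygenase that uses arachidonic acid, had a weak member with 2.04 and 1.22 CPM in AA, 2.06 and 1.31 CPM in PGE2, and 0.84 and 0.61 CPM in Vehicle libraries. Its rises of 1.18 ± 0.42 and 1.21 ± 0.42 (adjusted p = 0.0268 and 0.0279) were lost without AA 1 (0.366) or PGE2 1 (0.291), without Vehicle 1 (0.0616 and 0.0674) and without Vehicle 2 (0.173 and 0.190), and with DESeq2 for AA (0.224). Abcc4, an exporter of cyclic AMP and prostaglandins, had 56.5 and 56.1 CPM in AA, 53.0 and 53.1 CPM in PGE2, and 53.6 and 57.1 CPM in Vehicle libraries and was not called. Of the 2 loci at secretory genes, Tff3, a goblet cell peptide, rose with PGE2 by 0.25 ± 0.08 (adjusted p = 0.0177), a call lost without PGE2 2 (0.114), without Vehicle 1 (0.0522) or Vehicle 2 (0.194) and with DESeq2 (0.283), and Hes1 was not called.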

How the data were processed

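Per the file header, the authors counted paired fragments, with reads reduced to their 5′ end, in a consensus peak set with featureCounts 1.6.3, assigning a pair that overlapped several peaks to each. The values are raw counts per peak in 6 libraries; the submitters' processing notes name Trim Galore, BWA, Picard, SAMtools, MACS2 and mm10, and the peak settings and any transposase shift were not given in the sources used here. From these counts, members and loci were found as described, and counts of members were summed per locus. edgeR 4.0.16 (R 4.3.3) fitted all 6 libraries with group as the only term: TMM scaling (factors 0.969 to 1.02), filterByExpr (89347 peaks kept, 1476 removed), robust quasi-likelihood F-tests with Benjamini-Hochberg adjustment over the whole table. Standard errors are the log2 change over the root of F. The fit had 3 residual degrees of freedom and a median prior of 42.3. The 5 members removed are not in counts of calls. Gene ends, promoters and microRNAs came from RefSeq tables on GRCm38.p6, without exon structure.

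Members and gene lists were chosen with earlier results of these data known. Loci were named by a rule: the 10 with most members; per comparison, the 5 with the smallest p in each direction among those called without overlap; per list, the 2 with the smallest p for each lipid over Vehicle; and the 4 with most members called in both directions for each lipid; 2 loci that it names are not reported here. Alternatives were DESeq2 1.42.0, other scalings, no filter, fits of the compared groups alone, a replicate block, each library left out, and other member rules; loci in copy arrays left out and only loci of 3 or more members were added after seeing the data.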

Additional observations from a re-analysis of the deposited data

How the results depend on the processing

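No named locus reversed. Of 81 calls at named loci, 39 held in all 14 alternatives, 54 in all but DESeq2, and 42 were lost with DESeq2. Counts below are higher and lower, for AA over Vehicle, PGE2 over Vehicle and AA over PGE2. DESeq2 called 91 and 20, 57 and 15, and 5 and 4 members, and 36 and 11, 20 and 7, and 8 and 1 loci. Its calls over all features were not counted. With at least 9 other peaks required, members were 10 and 14, 10 and 12, and 3 and 11 of 107 tested. Loci were then 6 and 7, 3 and 4, and 3 and 3 of 31. With at least 5, members were 1607 and 1017, 1139 and 847, and 647 and 346 of 8770 tested. Loci were then 563 and 307, 394 and 324, and 305 and 123 of 2193. Under both of these member rules the members come from the main fit, so the shares over all peaks given above apply to them. Library totals gave 172 members and 74 loci lower with PGE2. Calls over all features were not counted under that scaling either. Members away from gene ends held 27 lower in AA than in PGE2. Loci of 3 or more members were 45 and 21, 29 and 18, and 28 and 12 of 180. These loci come from the main fit, so the shares of all features given above apply to them. The share of counts in members, 1.92% over all libraries, was 0.173% with at least 9 other peaks and 1.61% without gene ends. The causes of these shifts were not tested.

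Leaving out 1 library at a time gave 152 to 267 and 81 to 166, 86 to 136 and 50 to 105, and 46 to 98 and 15 to 55 members, and 54 to 103 and 23 to 54, 28 to 57 and 19 to 35, and 24 to 43 and 6 to 28 loci; the lone library left in a group is assumed to vary like the others. Deviations of same-numbered libraries from their group means correlated at 0.04 (AA and PGE2), 0.00 (AA and Vehicle) and -0.02 (PGE2 and Vehicle). These deviations were close to counting error in AA and Vehicle, with a chi-square per degree of freedom of 1.12 and 1.10 over all peaks. The check therefore cannot tell whether replicate numbers pair the libraries. With the replicate block, members were 243 and 147, 145 and 114, and 107 and 50, and loci 87 and 44, 55 and 37, and 48 and 19. With 2 libraries a group, and 115.9 counts in the median member, small changes of weak members were not detectable.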
